A study of Homo sapiens with 16 samples.

Results

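The 52 genes described here code for the kinases, motors, kinetochore parts, checkpoint proteins and cytokinesis factors that take a cell through mitosis. They were listed by name for that function, with earlier results of these data known. Among the 26830 entries of the deposited expression table were 52 of the 52 names. All 52 reached at least 1 TPM (the deposited unit, a transcript abundance corrected for length whose sum is the same in each library) in at least 3 libraries and so were tested, as were 14951 entries in all. The 16 libraries of poly(A) RNA came from NOMO-1, a human acute myeloid leukaemia cell line. NOMO-1 cells were treated for 72 hours with CS1 at 100 nM (n = 3), CS2 at 500 nM (n = 3) or DMSO, the solvent (n = 4). CS1 and CS2 are named only by these codes in the labels, and the series presents both as inhibitors of FTO, an enzyme that removes the methyl mark m6A from RNA. In a second experiment lentivirus brought in an FTO hairpin (shFTO, n = 3) or the hairpin named shNS (n = 3), with puromycin selection at 1 µg/ml for 1 week. The series text calls the replicates biological. All 5 groups thus share 1 cell line, and the 3 comparisons with a control have 2 separate control groups, since CS1 and CS2 share the DMSO libraries.

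Entry into mitosis is driven by CDK1 bound to a B-type cyclin, which CDC25 phosphatases switch on. Aurora and Polo kinases then build the spindle, the NDC80 complex ties kinetochores to microtubules, and the spindle checkpoint holds back the anaphase-promoting complex until every chromosome is attached. Transcripts of most of these genes accumulate in G2 and M phase, and their joint level is widely read as a sign of proliferation in leukaemia cells. The libraries are bulk samples, so a change in the share of cells in G2 or M and a change in RNA per cell cannot be told apart.

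The hairpin's target was measured first. FTO had 8.12, 7.49 and 8.35 TPM in shFTO libraries, against 31.27, 30.82 and 32.79 TPM in shNS libraries, and 29.57 to 35.94 TPM across CS1, CS2 and DMSO libraries. Replicates correlated at 0.9877 to 0.993 (Pearson, across genes). The depth is unknown because the values hold no read counts. Of 10 myeloid markers, PTPRC and SPI1 were expressed in every group, while CD14 and MPO stayed under 1 TPM in every library, so these monocyte and granule markers were near 0 in a line of myeloid leukaemia. The summed level of the 10 markers was 1138 to 1180 TPM in CS1, 1233 to 1280 TPM in CS2, 739.4 to 759.0 TPM in DMSO, 3145 to 3726 TPM in shFTO and 909.3 to 935.5 TPM in shNS libraries. LYZ, the lysozyme gene of maturing myeloid cells, averaged 2226 TPM in shFTO and 162.8 TPM in shNS libraries and made up most of the shFTO sum. The list did not move as one, since SPI1 averaged 117.9 TPM in shFTO and 129.5 TPM in shNS libraries, and CEBPA 218.5 TPM in shFTO and 253.3 TPM in shNS libraries. These marker sums differed between the same groups as the mitosis genes below, and their part in the results was not tested. Markers of other cell types were low, with CD3E (T cells) and KRT19 (epithelium) at 0 in every library.

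Promoters of mitotic genes are known for 2 short elements, the CHR, which MuvB complexes with B-MYB or FOXM1 bind, and the CCAAT box, which NF-Y binds. RefSeq start windows on GRCh38.p14, running from 250 bases before to 50 bases after a transcript start, were found for 43 of the 52 genes, as 54 windows. TPX2, TTK, UBE2C, PBK, FOXM1, BIRC5, RACGAP1, AURKA and BUB3 had no window among them. The windows of 5 genes are printed below in lower case, in the direction of the gene, with each CHR match (TTTGAA or TTTAAA) and each CCAAT match on either strand in capitals, so that TTCAAA and ATTGG also mark matches. NUSAP1 (chr15:41332631-41332930, plus strand) and SPC24 (chr19:11155733-11156032, minus strand) are shown because they were among the genes highest after CS2. CCNB1 (chr5:69166900-69167199, plus strand) is shown because it passed in neither compound comparison, and CDC20 (chr1:43358731-43359030, plus strand) and KIF20A (chr5:138178862-138179161, plus strand) because both fell with both compounds.
NUSAP1: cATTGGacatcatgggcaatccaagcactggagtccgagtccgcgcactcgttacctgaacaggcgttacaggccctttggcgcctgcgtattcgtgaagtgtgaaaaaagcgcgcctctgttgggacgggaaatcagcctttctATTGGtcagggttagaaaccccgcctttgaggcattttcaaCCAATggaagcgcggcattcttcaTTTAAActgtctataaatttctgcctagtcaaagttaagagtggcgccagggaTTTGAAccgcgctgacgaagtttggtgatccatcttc
SPC24: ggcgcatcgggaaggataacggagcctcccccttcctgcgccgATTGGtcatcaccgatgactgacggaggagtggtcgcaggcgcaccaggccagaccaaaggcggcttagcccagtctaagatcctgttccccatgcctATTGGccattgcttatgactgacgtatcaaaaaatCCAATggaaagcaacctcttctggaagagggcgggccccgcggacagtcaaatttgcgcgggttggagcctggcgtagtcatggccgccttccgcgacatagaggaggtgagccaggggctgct
CCNB1: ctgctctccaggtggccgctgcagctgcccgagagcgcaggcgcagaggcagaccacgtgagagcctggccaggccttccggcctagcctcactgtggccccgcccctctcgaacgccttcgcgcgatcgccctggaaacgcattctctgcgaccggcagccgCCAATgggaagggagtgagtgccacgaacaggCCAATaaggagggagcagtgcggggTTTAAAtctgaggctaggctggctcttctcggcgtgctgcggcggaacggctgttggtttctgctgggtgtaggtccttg
CDC20: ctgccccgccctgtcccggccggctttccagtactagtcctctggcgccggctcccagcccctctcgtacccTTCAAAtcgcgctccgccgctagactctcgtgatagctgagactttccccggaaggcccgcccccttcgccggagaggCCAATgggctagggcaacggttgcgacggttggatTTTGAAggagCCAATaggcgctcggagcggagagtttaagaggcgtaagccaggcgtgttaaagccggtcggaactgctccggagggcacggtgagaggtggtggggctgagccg
KIF20A: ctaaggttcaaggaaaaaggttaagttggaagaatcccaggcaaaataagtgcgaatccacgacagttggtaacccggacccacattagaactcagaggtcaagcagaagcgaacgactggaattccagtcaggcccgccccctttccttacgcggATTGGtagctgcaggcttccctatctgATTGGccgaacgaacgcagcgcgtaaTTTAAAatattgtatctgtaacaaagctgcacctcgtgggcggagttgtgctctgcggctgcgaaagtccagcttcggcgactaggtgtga
The CDC20, KIF20A, NUSAP1 and CCNB1 windows all hold CHR and CCAAT matches, whereas the SPC24 window holds 3 CCAAT matches and no CHR match.

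A CHR match was found in 40 of the 54 windows (74.1%) and in 36 of the 43 genes, against 24.0% of all 35116 windows of the same length. TTTGAA accounted for 61.1% of the members' windows, against 15.2% of all windows, and TTTAAA for 27.8%, against 12.2%. TTTAAA reads the same on both strands, and none of the motifs contains another. CCAAT was present in 41 windows (75.9%), against 34.6% of all windows, and both elements in 31 windows (57.4%), against 9.27%. The matches had positions in common, as 46.3% of the members' windows had a CHR match in the 50 bases before the start, against 4.79% of all windows, and 51.9% had CCAAT between 100 and 51 bases before it, against 12.9%. GGCGGGAA, an E2F-type sequence, was in 7.41% of the members' windows and in 3.16% of all windows. CCNA2, AURKB, BUB1, SPC24, KIF22, UBE2S and NEK2 had no CHR match in any window. Their median log2 fold change after CS2 was 0.86, against 0.52 for the 36 genes with a match, and after the FTO hairpin it was -0.23, against -0.19. The sequence classes thus held genes with high and low responses alike, from -0.05 (BUB1) to 1.74 (SPC24) without a CHR match after CS2 and from -0.57 (CDC20) to 1.64 (CDC25B) with one. The only CHR match of CDC25B is a TTTAAA at base 33 after the start, in the last of its 4 windows. A match is a stretch of letters in the window and was not tested for binding.

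**Figure D1:**
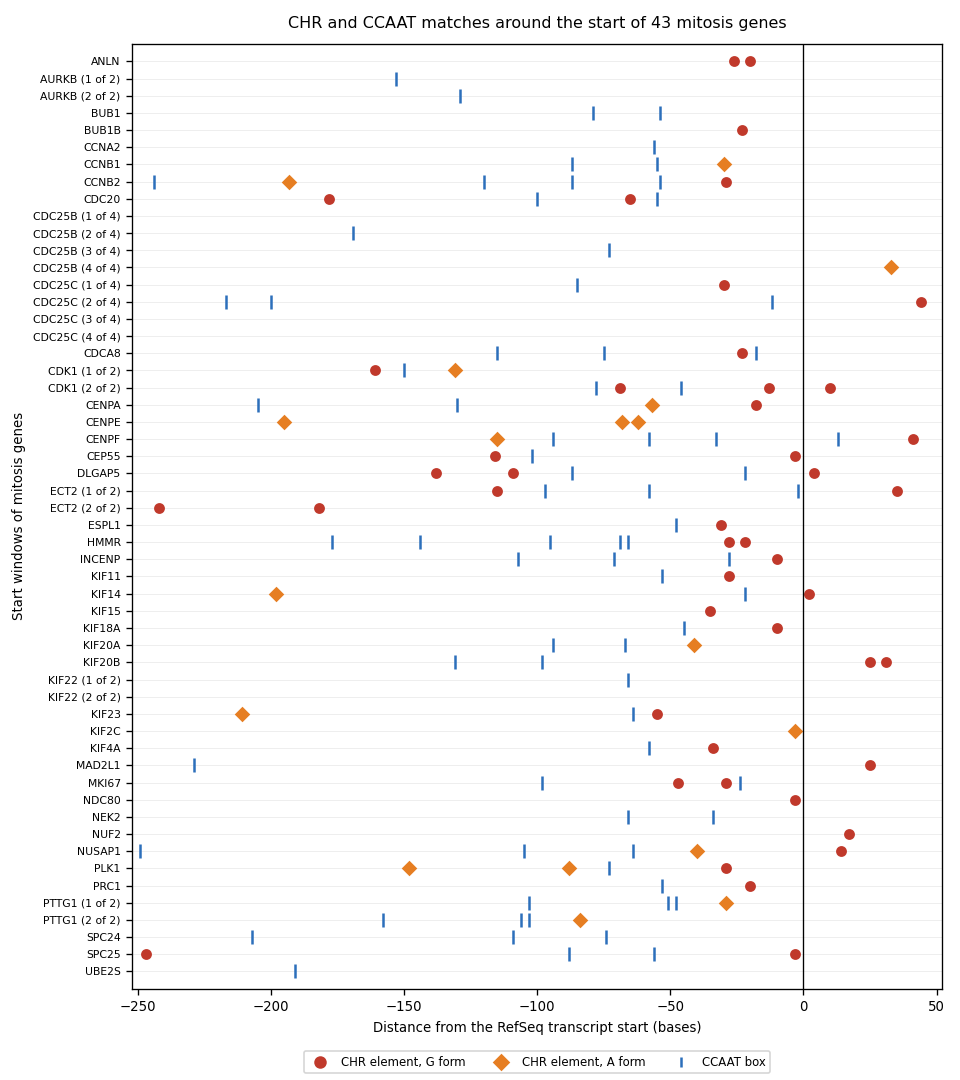
Positions of CHR matches (circles for the G form, diamonds for the A form) and CCAAT matches (bars) in the 54 start windows of 43 mitosis genes. The horizontal axis is the distance in bases from the RefSeq transcript start, and CHR matches gather in the last 50 bases before it, where 46.3% of the windows have one.

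The 52 genes spanned a wide range of abundance. The lowest value of any of them was 8.09 TPM and the highest 1134.38 TPM. CDC25C, a phosphatase that activates CDK1, was lowest in every group, at 10.55 ± 1.03 TPM in CS1, 14.65 ± 0.278 TPM in CS2, 8.92 ± 0.747 TPM in DMSO, 10.29 ± 0.215 TPM in shFTO and 11.78 ± 1.02 TPM in shNS libraries (SD). NUSAP1, a microtubule-binding protein of the spindle, was the most abundant in CS1 and CS2 cells, whereas TPX2, which targets Aurora A to the spindle, was the most abundant in DMSO, shFTO and shNS cells. TPX2 averaged 557.2 ± 19.9 TPM in CS1, 720.1 ± 16.9 TPM in CS2 and 468.6 ± 28.8 TPM in DMSO libraries, and 338.6 ± 1.86 TPM in shFTO and 406.7 ± 15.2 TPM in shNS libraries. In shFTO cells TPX2 and UBE2S, at 338.6 and 338.2 TPM, did not differ beyond their spread, and in CS1 cells NUSAP1 and TPX2, at 568.1 and 557.2 TPM, did not either. The median relative SD of the 52 genes within a group was 3.29% in CS1, 4.94% in CS2, 5.09% in DMSO, 4.24% in shFTO and 4.12% in shNS libraries.

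Together the 52 genes made up 0.75%, 0.76% and 0.74% of all TPM in CS1 libraries, 1.08%, 1.07% and 1.00% in CS2 libraries, and 0.69%, 0.68%, 0.63% and 0.64% in DMSO libraries. The groups did not overlap, with CS2 highest and DMSO lowest. The share was 0.49%, 0.49% and 0.50% in shFTO libraries, against 0.55%, 0.58% and 0.58% in shNS libraries, again with no overlap. DMSO replicates 3 and 4 lay below replicates 1 and 2, and CS2 replicate 3 lay below the other CS2 libraries. The controls themselves differed, as 42 of the 52 genes had a lower mean in shNS than in DMSO libraries. For 34 genes every shNS library was below every DMSO library, and for 5 every shNS library was above. The matching shares of all tested entries were not counted for the controls. The compound and hairpin responses are therefore each set against their own control.

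**Figure D2:**
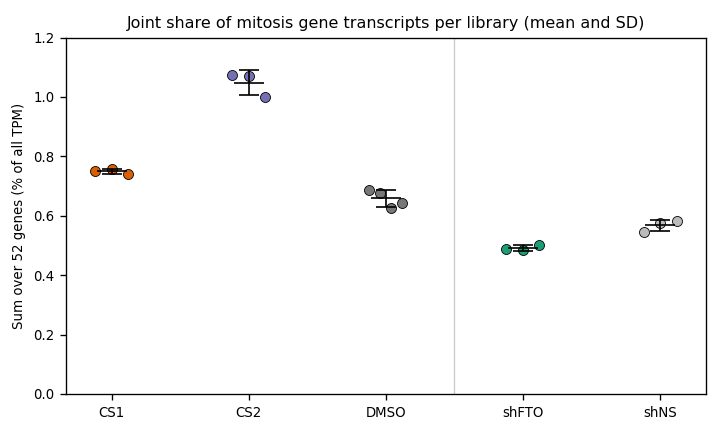
Sum of the 52 mitosis genes as a share of all TPM in each library, with the mean and SD of each group. The CS2 libraries lie between 1.00% and 1.08%, the DMSO libraries between 0.63% and 0.69%, and every shFTO library lies below every shNS library.

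After CS1, 30 of the 52 genes were higher, 6 were lower and 16 did not pass at a limma adjusted p of 0.05, where 37.5% of all tested entries were higher, 14.3% were lower and 51.8% passed in either direction. The median log2 fold change of the 52 genes on the log2(TPM + 1) scale was 0.16, against 0.09 for all tested entries. The scale of the libraries mattered here, because dividing each library by its median ratio to a common reference (median-ratio scaling) gave 20 higher and 14 lower among the 52 genes, beside 25.5% higher and 27.0% lower among all entries, and quantile normalization gave 21 and 14, beside 24.9% and 28.5%. CDK1, CCNB2, CDC25B, AURKA, NEK2, PBK, NDC80, NUF2, CENPA, AURKB, BIRC5, KIF2C, KIF4A, TPX2, NUSAP1, ANLN, RACGAP1, CEP55, UBE2C and FOXM1 were higher under all 3 scalings. PLK1, BUB1, CENPE, KIF20A, DLGAP5 and CDC20 were lower under all 3. CCNA2, CCNB1, TTK, INCENP, CDCA8, KIF14 and ECT2 did not pass after CS1 as deposited and passed as lower under both other scalings. None of the 52 genes reached a 2-fold change of mean TPM after CS1.

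After CS2, 44 of the 52 genes were higher and 2 lower, where 49.5% of all tested entries were higher, 24.6% were lower and 74.1% passed in either direction. Their median log2 fold change was 0.59, against 0.20 for all tested entries. Median-ratio scaling gave 32 higher and 10 lower, beside 35.8% and 36.0% of all entries, and quantile normalization gave 33 and 9, beside 36.1% and 35.8%. Across them, 32 genes were higher and CDC20 and KIF20A lower under all 3 scalings. CCNA2, CCNB2, PLK1, BUB1B, MAD2L1, NUF2, CENPE, CENPF, CDCA8, KIF14 and KIF23 lost the call as higher under both other scalings, and MKI67 with median-ratio scaling. Among these, CCNA2 and MAD2L1 passed as lower under another scaling. CCNB1, BUB1, BUB3, TTK, KIF20B and HMMR did not pass after CS2 as deposited and passed as lower under both other scalings. Mean TPM was at least 2-fold higher for 11 genes, CDK1, CDC25B, NDC80, SPC24, AURKB, BIRC5, KIF2C, NUSAP1, ANLN, CEP55 and UBE2S. The share of all tested entries with a 2-fold change was not counted in any comparison. Every CS2 library was above every DMSO library for 41 of the 52 genes, where this held for 48.0% of all tested entries, and below for 2, where it held for 24.2%.

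After the FTO hairpin, 3 of the 52 genes were higher and 31 lower than in shNS cells, where 31.9% of all tested entries were higher, 24.5% were lower and 56.4% passed in either direction. Their median log2 fold change was -0.20, against 0.07 for all tested entries. Median-ratio scaling gave 1 higher and 38 lower, beside 26.9% and 29.7% of all entries, and quantile normalization gave 4 and 31, beside 27.2% and 29.4%. BIRC5 was higher and 30 genes were lower under all 3 scalings. UBE2C was the only one of the 52 genes with a mean at least 2-fold lower. Every shFTO library was below every shNS library for 32 genes, where this held for 26.4% of all tested entries, and above for 5, where it held for 38.3%.

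**Figure D3:**
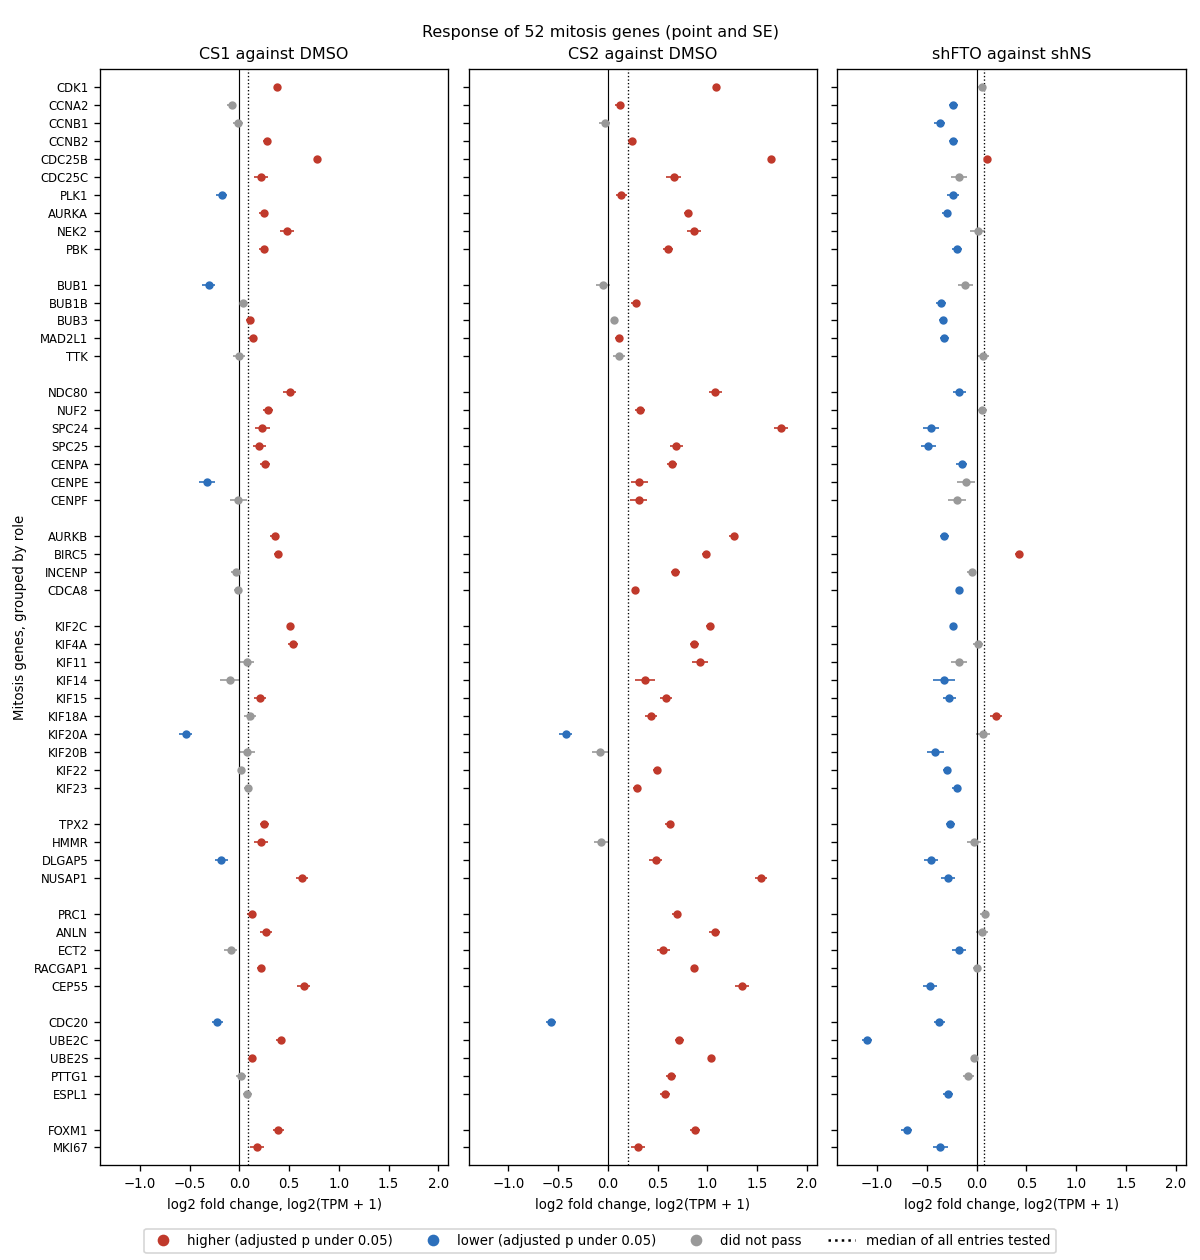
Log2 fold change on the log2(TPM + 1) scale with its SE for each of the 52 genes in CS1 against DMSO, CS2 against DMSO and shFTO against shNS, grouped by role. Colours mark calls at an adjusted p under 0.05, and the dotted line is the median of all tested entries. After CS2 44 genes are called higher, while after the FTO hairpin 31 are called lower.

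Counts by role group are read beside the shares of all tested entries. Those were 37.5% higher and 14.3% lower after CS1, 49.5% and 24.6% after CS2, and 31.9% and 24.5% with the hairpin. Among the 10 genes of mitotic entry (kinases, cyclins and phosphatases), 7 were higher and 1 lower after CS1, and 9 were higher and none lower after CS2. With the FTO hairpin 1 was higher and 6 were lower. Under median-ratio scaling 6 of the 10 were higher and 3 lower after CS1, 6 and 2 after CS2, and 0 and 7 with the hairpin. CDK1, the kinase that starts mitosis, had 190.8, 197.06 and 183.71 TPM in CS1, 313.92, 317.38 and 304.56 TPM in CS2, and 151.36, 148.98, 143.38 and 140.7 TPM in DMSO libraries. Both compounds raised CDK1 above every DMSO library, by 0.38 on the log2 scale (SE 0.04, limma adjusted p = 4.34e-07) after CS1 and 1.09 (SE 0.04, limma adjusted p = 1.02e-12) after CS2. Its 128.27, 135.54 and 133.53 TPM in shFTO libraries overlapped the 123.34, 129.79 and 130.0 TPM in shNS libraries (log2 fold change 0.05, limma adjusted p = 0.258), though with quantile normalization it passed as higher, at 0.12 (limma adjusted p = 0.0108).

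CCNB1, the cyclin B1 partner of CDK1, passed in neither compound comparison. It had 185.46, 189.95 and 212.24 TPM in CS1, 195.03, 200.01 and 183.02 TPM in CS2, and 198.44, 207.22, 190.17 and 193.06 TPM in DMSO libraries, and the 3 groups overlapped (log2 fold changes -0.01 and -0.03, SE 0.05, limma adjusted p = 0.87 and 0.566). With median-ratio scaling CCNB1 passed as lower in both, at -0.15 (limma adjusted p = 0.035) after CS1 and -0.27 (limma adjusted p = 0.000439) after CS2. With the FTO hairpin CCNB1 fell to 108.13, 107.09 and 115.76 TPM in shFTO libraries, against 135.53, 144.29 and 148.7 TPM in shNS libraries, without overlap (log2 fold change -0.37, SE 0.05, limma adjusted p = 4.17e-05). CCNB2, the second B-type cyclin, rose after both compounds, by 0.28 and 0.24, and fell by 0.23 on the log2 scale with the hairpin. Its change after CS2 was 0.01 with median-ratio scaling (limma adjusted p = 0.878) and 0.09 with quantile normalization (limma adjusted p = 0.0652).

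CDC25B, a phosphatase that activates CDK1, had the largest rise of the 52 genes after CS1 and the second largest after CS2. It had 139.88, 140.48 and 143.3 TPM in CS1, 259.23, 259.94 and 253.09 TPM in CS2, and 84.15, 83.05, 79.18 and 81.16 TPM in DMSO libraries. The 3 groups were fully apart, with log2 fold changes of 0.78 (SE 0.03, limma adjusted p = 3.64e-11) after CS1 and 1.64 (SE 0.03, limma adjusted p = 4.84e-15) after CS2. CDC25B was also 1 of the 3 genes called higher with the hairpin, at 110.96, 107.04 and 107.3 TPM in shFTO libraries, against 99.77, 100.25 and 101.39 TPM in shNS libraries. That difference of 0.11 (limma adjusted p = 0.00516) did not pass with median-ratio scaling, where it was 0.03 (limma adjusted p = 0.519).

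PLK1, the Polo kinase of spindle assembly and mitotic exit, had 120.2, 121.83 and 144.52 TPM in CS1, 163.58, 160.3 and 154.03 TPM in CS2, and 147.05, 145.96, 142.65 and 144.86 TPM in DMSO libraries. CS1 replicate 3 lay inside the DMSO range and the other CS1 libraries below it. PLK1 fell by 0.18 on the log2 scale after CS1 (limma adjusted p = 0.0163), and it did not pass without CS1 replicate 1 (-0.13, limma adjusted p = 0.101) or 2 (-0.14, limma adjusted p = 0.0873). Its rise of 0.13 after CS2 (limma adjusted p = 0.0429) turned to -0.10 with median-ratio scaling (limma adjusted p = 0.187), and it did not pass when CS2 replicate 1 or 2, any DMSO replicate, shFTO replicate 1 or shNS replicate 3 was left out (limma adjusted p = 0.0501 to 0.132). PLK1 also fell with the hairpin, to 101.43, 99.19 and 109.87 TPM in shFTO libraries, against 116.45, 126.32 and 122.88 TPM in shNS libraries (log2 fold change -0.23, limma adjusted p = 0.00367). AURKA, the centrosomal Aurora kinase, rose by 0.25 after CS1 and 0.81 after CS2 and fell by 0.30 with the hairpin. NEK2, a centrosome kinase, rose by 0.48 and 0.86 with the compounds and was at 0.01 with the hairpin (limma adjusted p = 0.92). PBK, a mitotic protein kinase, rose by 0.24 and 0.60 with the compounds and fell by 0.19 with the hairpin.

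The calls of CCNA2 and CDC25C depended on the scaling. CCNA2, cyclin A2, fell by 0.23 on the log2 scale with the hairpin. After CS1 it was at -0.07 (limma adjusted p = 0.19), but it passed as lower with median-ratio scaling (-0.21, limma adjusted p = 0.000759) and quantile normalization (-0.18, limma adjusted p = 0.00242). Its rise of 0.12 after CS2 (limma adjusted p = 0.0301) became a fall with median-ratio scaling (-0.12, limma adjusted p = 0.0225) and did not pass without CS2 replicate 1 or 2 or DMSO replicate 3 or 4 (limma adjusted p = 0.0849 to 0.135). CDC25C rose by 0.66 after CS2 and by 0.22 after CS1 (limma adjusted p = 0.0199), and the CS1 result did not pass with median-ratio scaling (0.10, limma adjusted p = 0.221), with quantile normalization (0.03, limma adjusted p = 0.691) or without CS1 replicate 1 or 2 or DMSO replicate 3 or 4 (limma adjusted p = 0.0521 to 0.114). With the hairpin CDC25C was at -0.18 (limma adjusted p = 0.0669), and it passed as lower with median-ratio scaling (-0.25, limma adjusted p = 0.00572) and quantile normalization (-0.30, limma adjusted p = 0.00105).

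**Figure D4:**
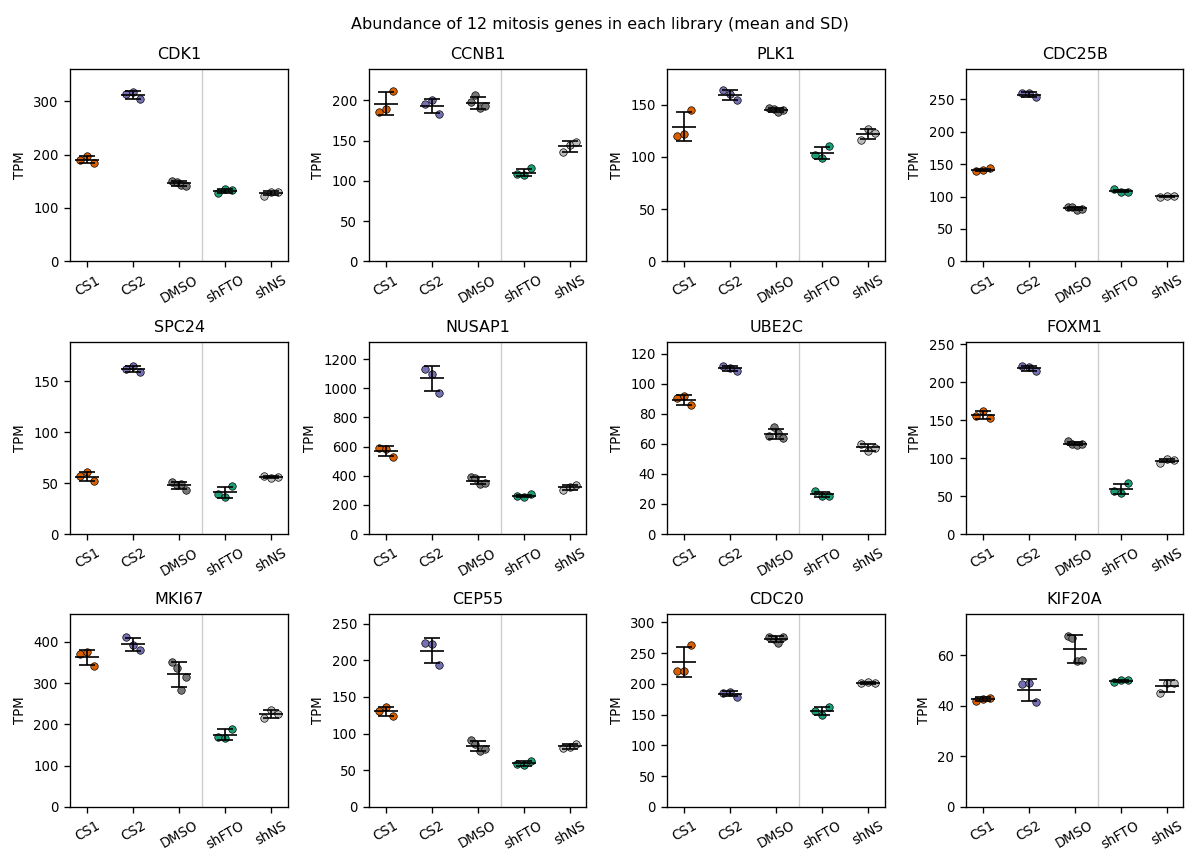
TPM of 12 mitosis genes in each library, with the mean and SD of each group; the vertical line separates the compound experiment from the hairpin experiment. CDC25B, SPC24, NUSAP1 and CEP55 are highest in CS2, CDC20 and KIF20A are lower in CS1 and CS2 than in DMSO, and UBE2C and FOXM1 are lowest in shFTO libraries.

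The 5 spindle checkpoint genes, whose products sense unattached kinetochores, had the lowest median of the role groups after CS2, 0.11, with 2 genes higher and none lower. That median lay below the 0.20 of all tested entries, and with median-ratio scaling 0 were higher and 4 lower. After CS1 2 were higher and 1 lower, and these shares, 40% and 20%, lay near the 37.5% and 14.3% of all tested entries. With median-ratio scaling 0 were higher and 3 lower after CS1. With the hairpin 3 were lower, with a median of -0.32. BUB1, a checkpoint kinase, had 113.5, 118.68 and 119.32 TPM in CS1 and 158.97, 154.89, 130.13 and 139.33 TPM in DMSO libraries, so every CS1 library was below every DMSO library (log2 fold change -0.31, SE 0.07, limma adjusted p = 0.0017). In CS2 libraries BUB1 had 151.17, 145.8 and 125.72 TPM and overlapped DMSO (limma adjusted p = 0.535), while with median-ratio scaling it passed as lower, at -0.28.

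BUB1B, which codes for the checkpoint protein BUBR1, had 200.86, 195.28 and 178.99 TPM in CS2 and 164.12, 163.39, 147.86 and 156.4 TPM in DMSO libraries. This rise of 0.28 (SE 0.05, limma adjusted p = 7.54e-05) was 0.05 with median-ratio scaling and no longer passed. After CS1, with 163.36, 165.09 and 158.38 TPM, BUB1B overlapped DMSO. With the hairpin it fell to 108.73, 112.08 and 118.9 TPM in shFTO libraries, against 140.02, 146.85 and 150.27 TPM in shNS libraries (log2 fold change -0.36, SE 0.05, limma adjusted p = 2.33e-05). BUB3 and MAD2L1, its partners in the checkpoint complex, fell by 0.34 and 0.32 on the log2 scale with the hairpin. TTK, the kinase at the top of the checkpoint, passed in none of the 3 comparisons, with log2 fold changes of 0.00, 0.11 and 0.06 after CS1, CS2 and the hairpin, but passed as lower with median-ratio scaling after CS1 (-0.13, limma adjusted p = 0.028) and CS2 (-0.12, limma adjusted p = 0.0329).

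The 7 kinetochore and centromere genes were all higher after CS2, with a median of 0.64, and 4 of them stayed higher with median-ratio scaling. After CS1 5 were higher and CENPE was lower, and with the hairpin 4 were lower and none higher. The NDC80 complex, the microtubule anchor of the outer kinetochore, has the subunits NDC80, NUF2, SPC24 and SPC25. NDC80 had 75.48, 80.93 and 67.83 TPM in CS1, 117.3, 115.14 and 102.42 TPM in CS2, and 56.0, 53.45, 50.17 and 49.56 TPM in DMSO libraries, 3 ranges that were fully apart. Its log2 fold change was 0.51 (SE 0.06, limma adjusted p = 8.02e-06) after CS1 and 1.08 (SE 0.06, limma adjusted p = 4.94e-10) after CS2. With the hairpin it was -0.17 (limma adjusted p = 0.0365), which did not pass when shFTO replicate 1, 2 or 3 or shNS replicate 2 or 3 was left out (limma adjusted p = 0.0607 to 0.118).

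SPC24 rose most of all 52 genes after CS2. It had 56.54, 60.73 and 52.02 TPM in CS1, 161.75, 165.31 and 159.27 TPM in CS2, and 50.96, 48.63, 49.34 and 43.0 TPM in DMSO libraries, so that CS2 stood far above while CS1 lay just above DMSO. The log2 fold change was 1.74 (SE 0.07, limma adjusted p = 1.81e-11) after CS2 and 0.23 (SE 0.07, limma adjusted p = 0.018) after CS1, where it did not pass with median-ratio scaling (0.10, limma adjusted p = 0.25), without CS1 replicate 2 (0.18, limma adjusted p = 0.0975) or without DMSO replicate 4 (0.18, limma adjusted p = 0.0577). With the hairpin SPC24 fell to 38.9, 36.82 and 47.04 TPM in shFTO libraries, against 56.89, 55.41 and 56.03 TPM in shNS libraries (log2 fold change -0.45, SE 0.08, limma adjusted p = 0.000192). SPC25 had 290.91, 290.65 and 255.58 TPM in CS2 and 186.55, 176.73, 164.09 and 163.94 TPM in DMSO libraries (log2 fold change 0.69, limma adjusted p = 2.21e-07). It had the largest fall of the 7 with the hairpin, to 90.37, 87.91 and 97.52 TPM in shFTO libraries, against 126.06, 130.51 and 129.97 TPM in shNS libraries (log2 fold change -0.48, SE 0.07, limma adjusted p = 4.49e-05). The fourth subunit, NUF2, rose by 0.29 and 0.32 with the compounds and was at 0.05 with the hairpin (limma adjusted p = 0.382). The CS2 change of NUF2 was 0.09 with median-ratio scaling (limma adjusted p = 0.05004) and 0.08 with quantile normalization (limma adjusted p = 0.0896). Differences between the subunits were not tested.

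CENPA, the histone H3 variant that marks centromeres, rose by 0.26 after CS1 and 0.64 after CS2 and fell by 0.15 with the hairpin (limma adjusted p = 0.0243), which did not pass with quantile normalization (-0.11, limma adjusted p = 0.0846) or without shFTO replicate 1 (-0.15, limma adjusted p = 0.055) or shNS replicate 3 (-0.11, limma adjusted p = 0.114). CENPE, a kinesin motor of the kinetochore, fell by 0.32 on the log2 scale after CS1 (limma adjusted p = 0.00447) and rose by 0.31 after CS2 (limma adjusted p = 0.00313), where its range overlapped that of DMSO. The rise of CENPE was 0.09 with median-ratio scaling (limma adjusted p = 0.251) and did not pass. CENPF, a large kinetochore protein, rose by 0.31 after CS2 and was at -0.01 after CS1 (limma adjusted p = 0.949), but the CS2 change was 0.08 with median-ratio scaling (limma adjusted p = 0.349). With the hairpin CENPE and CENPF did not pass as deposited and passed as lower with median-ratio scaling, at -0.18 (limma adjusted p = 0.0378) and -0.27 (limma adjusted p = 0.00546).

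All 4 genes of the chromosomal passenger complex, which corrects faulty attachments and later guides cytokinesis, were higher after CS2, with a median of 0.83, and 3 of them stayed higher with median-ratio scaling. AURKB, its kinase, had 151.95, 166.28 and 146.9 TPM in CS1, 285.66, 293.89 and 294.51 TPM in CS2, and 124.24, 124.05, 117.08 and 118.27 TPM in DMSO libraries. The groups did not overlap, and the log2 fold change was 0.35 (SE 0.04, limma adjusted p = 4.84e-06) after CS1 and 1.26 (SE 0.04, limma adjusted p = 1.22e-12) after CS2. With the hairpin AURKB fell to 118.18, 118.44 and 112.5 TPM in shFTO libraries, against 140.56, 145.95 and 150.98 TPM in shNS libraries (log2 fold change -0.32, limma adjusted p = 2.03e-05).

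BIRC5 codes for survivin, the complex member also known as an inhibitor of apoptosis, and it went up in all 3 comparisons. It had 51.29, 53.42 and 53.47 TPM in CS1, 81.3, 79.03 and 80.79 TPM in CS2, and 40.75, 40.9, 38.57 and 40.33 TPM in DMSO libraries. In shFTO libraries it had 34.83, 33.41 and 36.48 TPM, against 25.15, 24.81 and 27.25 TPM in shNS libraries. No 2 of the groups compared overlapped, and the log2 fold changes were 0.39 after CS1, 0.98 after CS2 and 0.43 with the hairpin (SE 0.04 each, limma adjusted p = 1.42e-06, 1.03e-11 and 9.26e-07). INCENP, the scaffold, and CDCA8, which codes for borealin, rose by 0.68 and 0.28 after CS2 and were at -0.04 and -0.02 after CS1, where neither passed. With median-ratio scaling both passed as lower after CS1, at -0.17 (limma adjusted p = 0.000572) and -0.15 (limma adjusted p = 0.00628), and the CS2 change of CDCA8 was 0.04 (limma adjusted p = 0.37). With the hairpin CDCA8 fell by 0.17 on the log2 scale, while INCENP was at -0.05 (limma adjusted p = 0.4) and passed as lower with median-ratio scaling (-0.13, limma adjusted p = 0.00652).

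Of the 10 kinesins, motors that move and crosslink spindle microtubules, 3 were higher and 1 lower after CS1, 8 were higher and 1 lower after CS2, and 1 was higher and 6 lower with the hairpin. The CS1 shares, 30% and 10%, lay below the 37.5% and 14.3% of all tested entries. Under median-ratio scaling 2 kinesins were higher and 2 lower after CS1, 6 and 2 after CS2, and 0 and 7 with the hairpin. KIF2C, which depolymerizes microtubules at the kinetochore, had 224.83, 223.29 and 223.99 TPM in CS1, 320.04, 323.34 and 318.51 TPM in CS2, and 161.17, 161.98, 149.64 and 156.85 TPM in DMSO libraries. Its replicates were close and its groups far apart, with log2 fold changes of 0.51 (SE 0.03, limma adjusted p = 7.15e-09) and 1.02 (SE 0.03, limma adjusted p = 6.97e-13). In the hairpin experiment it had 116.4, 115.19 and 116.77 TPM in shFTO libraries, against 130.87, 140.59 and 139.87 TPM in shNS libraries (log2 fold change -0.24, limma adjusted p = 2.98e-05). KIF4A, a chromosome-bound motor, rose by 0.54 after CS1, the most of the kinesins, with 141.84, 142.99 and 132.83 TPM in CS1 and 99.68, 99.3, 89.66 and 93.78 TPM in DMSO libraries (SE 0.05, limma adjusted p = 2.27e-07). With 182.75, 181.71 and 162.15 TPM in CS2 libraries it rose by 0.87, and with the hairpin it was at 0.01 (limma adjusted p = 0.814).

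KIF20A, a motor needed for cytokinesis, was singled out after its values were seen. It had 41.92, 42.85 and 43.25 TPM in CS1, 48.6, 48.88 and 41.44 TPM in CS2, and 67.63, 66.87, 57.72 and 58.02 TPM in DMSO libraries, so that every treated library was below every DMSO library. The log2 fold change was -0.54 (SE 0.07, limma adjusted p = 7.05e-06) after CS1 and -0.43 (SE 0.07, limma adjusted p = 2.77e-05) after CS2. In shFTO libraries it had 49.34, 50.3 and 50.13 TPM, against 44.95, 49.02 and 49.2 TPM in shNS libraries, and it did not pass (log2 fold change 0.07, limma adjusted p = 0.454). KIF20A shares exonic bases with BRD8 and CDC23 on the opposite strand, which changed by 0.24 and 0.15 after CS2, and whether the counting used strand is not given in the sources used here. KIF20B, its relative in cytokinesis, had 22.22, 23.41 and 28.87 TPM in shFTO libraries, against 31.65, 34.68 and 33.37 TPM in shNS libraries, the largest fall of the kinesins with the hairpin (log2 fold change -0.41, SE 0.09, limma adjusted p = 0.000734). KIF20B overlapped DMSO in both compound groups, with 49.56, 49.16 and 54.16 TPM in CS1, 48.37, 47.7 and 40.89 TPM in CS2 and 51.31, 46.05, 48.83 and 47.02 TPM in DMSO libraries. After CS2 it nevertheless passed as lower with median-ratio scaling (-0.31, limma adjusted p = 0.00154) and quantile normalization (-0.30, limma adjusted p = 0.00199).

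KIF11, the motor that pushes spindle poles apart, rose by 0.93 after CS2 and was at 0.08 after CS1 (limma adjusted p = 0.424). With the hairpin KIF11 was at -0.18 (limma adjusted p = 0.0761), and it passed as lower with median-ratio scaling (-0.25, limma adjusted p = 0.00195). KIF14, KIF15, KIF18A, KIF22 and KIF23 rose after CS2 by 0.29 to 0.58. With median-ratio scaling the CS2 change was 0.14 for KIF14 (limma adjusted p = 0.136) and 0.06 for KIF23 (limma adjusted p = 0.112), and neither passed. KIF18A, which limits chromosome movement, was the only kinesin higher with the hairpin, at 13.31, 15.5 and 13.81 TPM in shFTO libraries, against 11.85, 12.69 and 12.23 TPM in shNS libraries (log2 fold change 0.20, limma adjusted p = 0.0151), and it did not pass with median-ratio scaling, without shFTO replicate 2 (0.14, limma adjusted p = 0.0866) or without shNS replicate 1 (0.17, limma adjusted p = 0.0574).

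Of the 4 spindle assembly genes, 3 were higher and 1 lower after CS1, 3 were higher and none lower after CS2, and 3 were lower with the hairpin. NUSAP1 had 588.95, 586.56 and 528.83 TPM in CS1, 1134.38, 1099.54 and 969.09 TPM in CS2, and 392.24, 385.86, 340.66 and 349.53 TPM in DMSO libraries. The groups were far apart, with log2 fold changes of 0.63 (SE 0.06, limma adjusted p = 9.75e-07) after CS1 and 1.54 (SE 0.06, limma adjusted p = 1.15e-11) after CS2. With the hairpin NUSAP1 fell to 260.55, 257.44 and 271.87 TPM in shFTO libraries, against 304.34, 321.88 and 337.33 TPM in shNS libraries (log2 fold change -0.29, limma adjusted p = 0.00218). The pair of CHR matches and the 3 CCAAT matches of its start window are shown in capitals in the printed sequence.

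DLGAP5, a stabilizer of kinetochore fibres also known as HURP, had 86.25, 87.08 and 87.29 TPM in CS1, 146.34, 145.67 and 122.96 TPM in CS2, and 107.39, 103.46, 90.42 and 93.73 TPM in DMSO libraries. It thus stood below DMSO in CS1 and above it in CS2, with log2 fold changes of -0.18 (limma adjusted p = 0.0339) and 0.48 (limma adjusted p = 8.59e-06). The fall after CS1 did not pass when any of CS1 replicates 1, 2 and 3 or DMSO replicates 1 and 2 was left out (limma adjusted p = 0.0637 to 0.0997). With the hairpin DLGAP5 fell to 64.52, 63.44 and 67.02 TPM in shFTO libraries, against 84.16, 91.08 and 93.93 TPM in shNS libraries (log2 fold change -0.46, SE 0.07, limma adjusted p = 5.93e-05). TPX2 rose by 0.25 and 0.62 with the compounds and fell by 0.26 with the hairpin. HMMR, a hyaluronan receptor that also works at spindle poles, rose by 0.22 after CS1 (limma adjusted p = 0.0171), which did not pass with median-ratio scaling (0.08, limma adjusted p = 0.22), with quantile normalization (0.08, limma adjusted p = 0.287) or without CS1 replicate 1 or DMSO replicate 3 or 4 (limma adjusted p = 0.0548 to 0.0627). HMMR was at -0.07 after CS2 and -0.03 with the hairpin, where it did not pass, but after CS2 it passed as lower with median-ratio scaling (-0.30, limma adjusted p = 0.000142) and quantile normalization (-0.29, limma adjusted p = 0.000316).

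The 5 genes of the central spindle and cytokinesis were all higher after CS2 under each of the 3 scalings, with a median of 0.87. CEP55, which recruits the machinery that cuts the last bridge between daughter cells, had the largest change of the 5 in all 3 comparisons. It had 130.9, 136.23 and 124.31 TPM in CS1, 223.24, 222.16 and 193.21 TPM in CS2, and 91.67, 85.96, 75.93 and 78.99 TPM in DMSO libraries, with no overlap (log2 fold changes 0.65 and 1.35, SE 0.07, limma adjusted p = 1.22e-06 and 7.96e-11). With the hairpin CEP55 fell to 58.12, 56.91 and 63.02 TPM in shFTO libraries, against 79.57, 82.26 and 85.89 TPM in shNS libraries (log2 fold change -0.47, SE 0.07, limma adjusted p = 4.73e-05). ANLN, the actin-binding anillin of the contractile ring, rose by 1.07 after CS2 and was at 0.05 with the hairpin (limma adjusted p = 0.49). RACGAP1 and ECT2, partners that switch on RhoA at the cleavage site, rose by 0.87 and 0.56 after CS2, and PRC1, which bundles the midzone microtubules, by 0.69. With the hairpin PRC1 was at 0.08 and RACGAP1 at 0.01, neither of which passed, although PRC1 passed as higher with quantile normalization (0.18, limma adjusted p = 0.00224). ECT2 fell by 0.18 on the log2 scale (limma adjusted p = 0.0396) with ranges that overlapped, and did not pass when shFTO replicate 1 or 2 or shNS replicate 2 or 3 was left out (limma adjusted p = 0.0954 to 0.17).

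The 5 partners of the anaphase-promoting complex and of sister separation held the largest fall of the 52 genes after CS2, that of CDC20, and the largest with the hairpin, that of UBE2C. Of the 5, 2 were higher and 1 lower after CS1, 4 were higher and 1 lower after CS2, and none were higher and 3 lower with the hairpin. The CS1 shares, 40% and 20%, lay near the 37.5% and 14.3% of all tested entries. With median-ratio scaling 1 was higher and 1 lower after CS1. UBE2C, the ubiquitin-conjugating enzyme that starts chains for the complex, had 28.54, 25.44 and 25.09 TPM in shFTO libraries, against 60.15, 55.26 and 57.33 TPM in shNS libraries. This was the largest change of the 52 genes with the hairpin (log2 fold change -1.10, SE 0.05, limma adjusted p = 4.50e-10). With the compounds UBE2C rose, with 90.37, 91.75 and 85.66 TPM in CS1, 111.91, 110.39 and 108.67 TPM in CS2 and 64.9, 70.93, 67.38 and 63.6 TPM in DMSO libraries (log2 fold changes 0.41 and 0.72, SE 0.05, limma adjusted p = 5.08e-06 and 3.21e-09). UBE2S, which extends those chains, had 874.7, 885.63 and 881.9 TPM in CS2 and 429.56, 427.36, 426.59 and 428.02 TPM in DMSO libraries, 2 tight ranges far apart (log2 fold change 1.04, SE 0.03, limma adjusted p = 2.69e-13). After CS1 UBE2S had 467.32, 458.66 and 480.19 TPM, a rise of 0.13 (limma adjusted p = 0.00139) that became -0.005 (limma adjusted p = 0.943) with median-ratio scaling. In the hairpin experiment UBE2S overlapped between groups, at -0.03 (limma adjusted p = 0.445).

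CDC20, the activator that the checkpoint holds back, was singled out after its values were seen, because it fell in all 3 comparisons. It had 220.76, 221.66 and 264.02 TPM in CS1, 186.04, 186.59 and 179.15 TPM in CS2, and 277.18, 273.59, 266.11 and 276.19 TPM in DMSO libraries. In shFTO libraries it had 155.2, 149.92 and 162.29 TPM, against 200.86, 203.3 and 201.67 TPM in shNS libraries. No treated library reached the range of its control, though CS1 replicate 3 came close to it, and the log2 fold changes were -0.22 after CS1, -0.57 after CS2 and -0.37 with the hairpin (SE 0.05 each, limma adjusted p = 0.0021, 6.99e-08 and 3.38e-05). PTTG1, the securin that keeps separase inactive, and ESPL1, separase itself, rose by 0.63 and 0.57 after CS2. After CS1 neither passed, and with the hairpin ESPL1 fell by 0.28 on the log2 scale while PTTG1 was at -0.08 (limma adjusted p = 0.189) and passed as lower with median-ratio scaling (-0.16, limma adjusted p = 0.0245). The deposited entries PTTG2 and PTTG3P, near copies of PTTG1, averaged 0.0719 and 0.0463 TPM.

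FOXM1, the transcription factor of G2 and M phase genes, had 155.18, 161.87 and 152.53 TPM in CS1, 221.0, 219.6 and 214.55 TPM in CS2, and 122.1, 118.78, 116.82 and 118.17 TPM in DMSO libraries. It rose in both without overlap, by 0.39 (SE 0.05, limma adjusted p = 1.43e-05) and 0.87 (SE 0.05, limma adjusted p = 6.29e-10). With the hairpin FOXM1 fell to 56.27, 54.63 and 66.56 TPM in shFTO libraries, against 94.06, 98.47 and 96.81 TPM in shNS libraries, the second largest fall of the 52 genes (log2 fold change -0.70, SE 0.06, limma adjusted p = 7.58e-08). FOXM1 shares up to 651 exonic bases with ITFG2 on the opposite strand, an entry of lower abundance, at a mean of 12.76 TPM.

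MKI67, which codes for the proliferation marker Ki-67, had 371.81, 375.14 and 340.63 TPM in CS1, 411.8, 392.33 and 380.48 TPM in CS2, and 351.73, 335.69, 283.09 and 314.43 TPM in DMSO libraries. CS1 overlapped DMSO and CS2 did not. The rise after CS1, 0.18 (SE 0.07, limma adjusted p = 0.0386), did not pass with either other scaling or without CS1 replicate 1 or 2 or DMSO replicate 3 or 4 (limma adjusted p = 0.0766 to 0.13). The rise after CS2, 0.30 (SE 0.07, limma adjusted p = 0.000869), became 0.07 with median-ratio scaling and did not pass. With the hairpin MKI67 fell to 168.41, 166.3 and 189.64 TPM in shFTO libraries, against 215.37, 234.74 and 224.34 TPM in shNS libraries (log2 fold change -0.36, SE 0.07, limma adjusted p = 0.000535).

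Set directly against each other, CS1 and CS2 cells differed in most mitosis genes, with the caution that the doses differ, 100 nM for CS1 and 500 nM for CS2. Of the 52 genes, 2 were higher and 41 lower in CS1 than in CS2 cells, where 26.2% of all tested entries were higher, 40.4% were lower and 66.6% passed in either direction. The median difference was -0.41, against -0.11 for all tested entries. SPC24 differed most, by -1.51 (SE 0.08, limma adjusted p = 5.30e-10), followed by UBE2S, NUSAP1 and AURKB, each at -0.91. The 2 genes higher in CS1 than in CS2 cells were CDC20, by 0.35 (SE 0.05, limma adjusted p = 4.35e-05), and HMMR, by 0.29 (SE 0.07, limma adjusted p = 0.00315). CCNB1, CCNB2, BUB3, MAD2L1, TTK, NUF2, KIF20A, KIF20B and MKI67 did not pass, with differences from -0.12 (SE 0.07, MKI67) to 0.16 (SE 0.09, KIF20B). With median-ratio scaling 6 were higher and 40 lower, beside 31.6% and 32.7% of all entries, the 4 added to the higher ones being CCNB2, BUB3, MAD2L1 and KIF20B.

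The compound responses were also set against the hairpin response, each with its own control. The CS1 response minus the hairpin response was higher for 35 of the 52 genes and lower for 1, KIF20A, where 31.0% of all tested entries were higher, 18.3% were lower and 49.4% passed in either direction. Median-ratio scaling gave 33 and 3, beside 27.5% and 23.3% of all entries, and quantile normalization 28 and 6, beside 26.3% and 25.0%. UBE2C had the largest difference, 1.52 (SE 0.07, limma adjusted p = 1.01e-09), followed by CEP55 at 1.12 and FOXM1 at 1.09. The CS2 response minus the hairpin response was higher for 47 genes and lower for 2, where 39.8% of all tested entries were higher, 23.7% were lower and 63.4% passed in either direction. SPC24 led, at 2.19 (SE 0.11, limma adjusted p = 3.03e-10), with NUSAP1, UBE2C and CEP55 each at 1.82. The 2 lower were KIF20A, at -0.49, and CDC20, at -0.20 (limma adjusted p = 0.0314), which did not pass with the replicate number as a block (limma adjusted p = 0.0548) or when CS2 replicate 3, DMSO replicate 1 or 4, shFTO replicate 3 or shNS replicate 1 or 3 was left out (limma adjusted p = 0.0503 to 0.0724). For CS2 against the hairpin, median-ratio scaling gave 42 higher and 3 lower, beside 4869 and 4579 of the 14951 tested entries. Of the 47 genes, 40 were higher under all 3 scalings. CCNB1, PLK1, NUF2, KIF18A and KIF20B lost the call under both other scalings. BUB1, TTK and HMMR did not pass against the hairpin for either compound with the values as deposited. Under median-ratio scaling and quantile normalization BUB1 passed as lower for CS1, at -0.25 (limma adjusted p = 0.0245) and -0.37 (limma adjusted p = 0.00495), and HMMR as lower for CS2, at -0.20 (limma adjusted p = 0.0413) and -0.28 (limma adjusted p = 0.00998). TTK passed as lower for CS1 with quantile normalization (-0.19, limma adjusted p = 0.0486).

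Gene by gene, 27 of the 52 genes were higher after CS2 and lower with the hairpin, AURKA, TPX2, UBE2C and FOXM1 among them. CDC25B, BIRC5 and KIF18A were higher in both, and CDC20 was lower in both. After CS1, 18 genes were higher and also lower with the hairpin, while PLK1, DLGAP5 and CDC20 were lower in both. The share of all tested entries with such joint calls was not counted. Singly, 49.5% of all tested entries were higher after CS2, 37.5% were higher after CS1 and 24.5% were lower with the hairpin. The joint counts use the values as deposited. CCNA2 and MAD2L1, among the 27, passed as lower after CS2 with median-ratio scaling. Pearson's r across the 52 genes was 0.04 between the CS2 and hairpin responses and -0.03 between the CS1 and hairpin responses, a description of genes that are not independent of each other.

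Related lists of mitotic machinery, written with earlier results of these data known, were read beside the 52 genes and beside the shares of all tested entries, which were 37.5% higher and 14.3% lower after CS1, 49.5% and 24.6% after CS2, and 31.9% and 24.5% with the hairpin. Of 27 other kinetochore genes, 22 were higher and 3 lower after CS2 (median 0.72), 17 and 3 after CS1 (median 0.23), and 3 and 13 with the hairpin (median -0.17). CENPH, a subunit of the inner kinetochore, was the lowest of the 3 after CS2, at 16.7 TPM in CS2 and 62.57 TPM in DMSO libraries on average (log2 fold change -1.84, limma adjusted p = 1.09e-13). HJURP, which loads CENPA, rose by 0.96 after CS2. Of 18 other spindle and centrosome genes tested (of 19 listed), 16 were higher and none lower after CS2 (median 0.63), 7 and 1 after CS1 (median 0.16), and 3 and 7 with the hairpin (median -0.12). For these 18 the share higher after CS1, 38.9%, lay near the 37.5% of all tested entries. With median-ratio scaling 4 of them were higher and 3 lower after CS1, and 15 and 1 after CS2. SPAG5, the astrin of the spindle, rose by 1.24 after CS2 and by 0.42 with the hairpin. KIF18B, a microtubule-depolymerizing kinesin, rose by 1.06 after CS2 and did not pass after CS1 (limma adjusted p = 0.973).

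Of 10 other genes of mitotic entry control, 8 were higher and 1 lower after CS2 (median 0.50), 6 and 2 after CS1 (median 0.22), and none and 9 with the hairpin (median -0.28). MASTL, the Greatwall kinase, averaged 56.34 TPM in CS2 and 22.26 TPM in DMSO libraries (limma adjusted p = 1.57e-12), and GTSE1, which acts on microtubules in G2, rose by 0.96 after CS2. Of 19 condensin and cohesin genes, 13 were higher and 1 lower after CS2 (median 0.34), 7 and 2 after CS1 (median 0.08), and 2 and 9 with the hairpin (median -0.15). CDCA5, the cohesin protector sororin, rose by 1.35 after CS2, while SMC4, a condensin core subunit, was the lowest, at -0.79. For these 19 genes the share higher after CS1, 36.8%, lay near the 37.5% of all tested entries. With median-ratio scaling 7 of them were higher and 9 lower after CS1, beside 25.5% and 27.0% of all entries. After CS2 that scaling gave 10 higher and 7 lower, beside 35.8% and 36.0% of all entries. The 16 anaphase-promoting complex subunits and regulators had medians of -0.04 after CS1, 0.16 after CS2 and -0.03 with the hairpin, with 4, 9 and 2 genes higher and 5, 3 and 6 lower. With median-ratio scaling 2 of these 16 were higher and 7 lower after CS2.

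Of 12 genes of the MuvB, DREAM and B-MYB complexes, 8 were higher and 4 lower after CS2, 4 and 2 after CS1, and 4 and 3 with the hairpin. These shares lay near those of all tested entries after CS1 (33.3% and 16.7%) and with the hairpin (33.3% and 25.0%), and with median-ratio scaling the counts were 3 and 7 after CS1 and 1 and 5 with the hairpin. MYBL2, which codes for B-MYB, averaged 534.4 TPM in CS1, 944.1 TPM in CS2 and 326.1 TPM in DMSO libraries, and 159.8 TPM in shFTO and 258.0 TPM in shNS libraries, so it rose by 0.71 and 1.53 with the compounds and fell by 0.70 with the hairpin. The 37 DNA replication genes, whose products act in S phase, had 29 higher and 4 lower after CS2 (median 0.48), 17 and 4 after CS1 (median 0.14), and none higher and 36 lower with the hairpin (median -0.60). With the hairpin the replication list's median lay below the -0.20 of the mitosis genes, a difference between lists that was not tested. RFC2, a subunit of the clamp loader, averaged 59.85 TPM in shFTO and 96.81 TPM in shNS libraries.

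**Figure D5:**
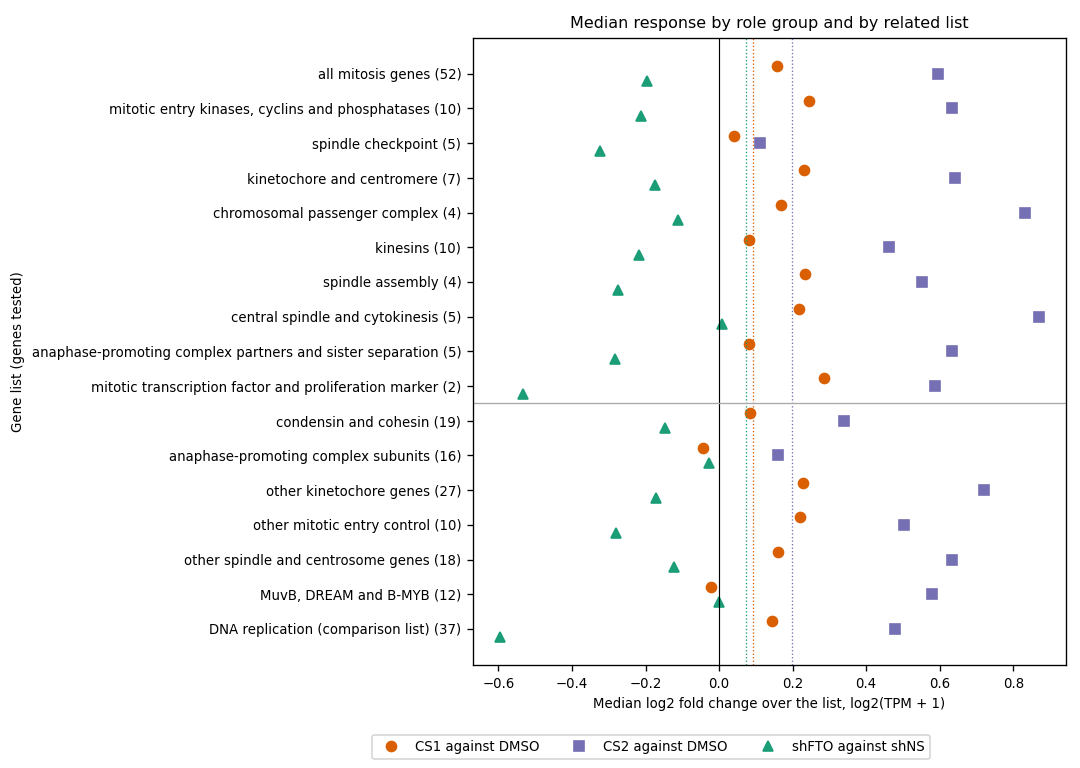
Median log2 fold change on the log2(TPM + 1) scale of the 52 mitosis genes, their 9 role groups (above the line) and 7 related lists (below it), in CS1 against DMSO, CS2 against DMSO and shFTO against shNS. Dotted lines give the median of all tested entries in each comparison; the spindle checkpoint has the lowest CS2 median of the role groups, 0.11, and DNA replication the lowest hairpin median, -0.60.

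Across the 16 libraries, each gene's log2(TPM + 1) was correlated with the mean of the other 51 as a description. The median Pearson's r was 0.91, with 29 of 52 genes over 0.9 and AURKA (0.996) and TPX2 (0.993) the closest. KIF20A (-0.20), CDC20 (0.19), PTTG1 (0.36), BUB1 (0.38) and HMMR (0.41) were the 5 genes under 0.5. The libraries fall into 5 groups and share the scale of TPM, so these values mainly describe differences between groups. Among entries outside the 52 with a mean of at least 5 TPM, SNW1 (0.995), STIL (0.994) and SMC1A (0.994) had the highest r with the mean of the mitosis genes.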

How the data were processed

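RNA sequencing of 16 NOMO-1 libraries was analysed as deposited TPM, made by the authors with RSEM 1.2.31 on GRCh38, per the submitters' processing notes. The aligner, annotation release and strand setting were not given in the sources used here. That the unit is TPM was read from the column totals, which run from 999999 to 1000001. TPM hold no read counts, so no depth or counting interval can be given, and because a library's values share 1 total, a rise of some entries lowers others. No pair of libraries was identical.

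A test was run on each entry that reached 1 TPM or more in 3 or more libraries, on log2(TPM + 1), which understates changes of low entries, with no further scaling. Limma 3.58.1 (R 4.3.3; lmFit, then eBayes with trend) was fitted to all 16 libraries, with a mean for each group. Tests were two-sided, p-values were adjusted by Benjamini-Hochberg over all 14951 entries within a comparison, and the threshold was 0.05. The procedure was first tested on simulated data, with few genes changed, in CS2 only, and no shift in the scale of libraries. That simulation cannot show how the calls depend on the scaling. Alternatives were a pseudocount of 0.1, no filter, median-ratio scaling, quantile normalization, a replicate block, no trend, fits of only the groups compared, and leaving out each library. Values after ± are SD.

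The 52 genes and the related lists were chosen with earlier results of these data known. Genes described library by library were those with the largest absolute change among members that passed, per role group and comparison with a control, plus CDK1, CCNB1, PLK1 and MKI67; CDC20 and KIF20A were added after their values were seen. From the related lists, up to 2 genes with the smallest adjusted p after CS2 were named, and SMC4 was added after its value was seen. Gene positions and overlaps came from GENCODE release 29. Sequences came from RefSeq and were searched on both strands with Python 3.11.15.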

Additional observations from a re-analysis of the deposited data

How the results depend on the processing

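The scale of the libraries mattered most. Median-ratio scaling moved the median of all tested entries from 0.09 to -0.02 after CS1 and from 0.20 to 0.00 after CS2, as values on the log2 scale. The number of mitosis genes called lower became 14 after CS1 with both scalings, and 10 (median-ratio) and 9 (quantile) after CS2. The number higher with the FTO hairpin became 1 with median-ratio scaling, the number higher in CS1 against CS2 became 6 with both, and the number lower in the CS1 response minus the hairpin response became 3 (median-ratio) and 6 (quantile). Genes whose sign turned, with a call in at least 1 of the fits, had these log2 fold changes. After CS1 with median-ratio scaling they were BUB1B (-0.095), BUB3 (-0.029), TTK (-0.133), PRC1 (-0.011) and UBE2S (-0.005), and with quantile normalization BUB3 (-0.01), TTK (-0.139) and KIF22 (-0.099). After CS2 with median-ratio scaling they were CCNA2 (-0.116), PLK1 (-0.1), BUB3 (-0.171), MAD2L1 (-0.121) and TTK (-0.12), and with quantile normalization CCNA2 (-0.085), PLK1 (-0.083), BUB3 (-0.113), MAD2L1 (-0.117) and TTK (-0.122). With quantile normalization INCENP (-0.145) and CDCA8 (-0.002) turned in the CS1 response minus the hairpin response, and NUF2 (-0.011) in the CS2 response minus it. The cause was not tested.

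The replicate numbers were not taken to pair libraries, since the correlations of same-numbered deviations ran from -0.00925 to 0.219. With the replicate block the number lower in the CS2 response minus the hairpin response became 1, and the counts higher and lower were 25 and 6 after CS1, 42 and 2 after CS2 and 3 and 30 with the hairpin. Leaving out 1 library gave 24 to 30 higher and 4 to 6 lower after CS1, 41 to 45 higher and 2 lower after CS2, 2 to 3 higher and 27 to 33 lower with the hairpin, 2 to 3 higher in CS1 against CS2, 1 to 2 lower in the CS1 response minus the hairpin response (2 without DMSO replicate 3) and 1 to 2 lower in the CS2 response minus it. A pseudocount of 0.1, no filter, no trend and fits of only the groups compared kept each count of calls within 1.5 times. Without read counts, the precision of single libraries cannot be stated.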
